A study of Mus musculus with 3 samples.

Results

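The Slc25 genes encode the mitochondrial carriers, and 38 of them were followed through 3 erythroblast libraries. They are all the genes in the deposited tables whose symbol is Slc25a followed by a number, except Slc25a37 and Slc25a38, the carriers tied most directly to iron and heme. The tables join into 15058 genes. The libraries came from nucleated red-cell precursors sorted from mouse peripheral blood at E10.5 (the embryonic day), and each holds total RNA pooled from 5 embryos. The control library was made from CD71+ Ter119-high cells of Drosha fl/fl or Drosha fl/+ embryos, for which no Cre is listed. The Drosha-null library was made from CD71+ Ter119-high cells of Drosha fl/fl;cdh5-cre+ embryos, conditional knockouts (cKO) in which the label gives Drosha as null. The Ter119-low library was made from CD71+ Ter119-low cells of Drosha fl/fl;cdh5-cre+ embryos, and its label gives Drosha as abundant as WT. Drosha is the RNase of the nucleus that starts microRNA processing. Cre was driven by Cdh5, an endothelial gene, so the deletion was directed to endothelial cells and the blood cells that descend from them. Ter119 is a red-cell surface antigen that increases with maturation, so the Ter119-low library differs from the control in gate as well as in genotype, and their effects cannot be told apart.

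Mitochondrial carriers are small proteins of the inner membrane that swap one metabolite for another by opening alternately to each side. They are made in the cytosol and inserted by the TOM pores, the small TIM chaperones and the TIM22 complex. In erythroblasts they feed respiration, deliver iron and glycine for heme synthesis, and connect the citric acid cycle with the cytosol, until mitochondria are cleared from the maturing cell.

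Each group held 1 library, so the differences have no replicate check and no test across conditions was possible. Total counts were 9325814 to 9497425 per library, and 13277 to 13894 genes were detected. All ratios are on the log2 scale, from counts adjusted by TMM, a scaling that sets the bulk of genes level between libraries, and each carries an exact 95% Clopper-Pearson interval. The intervals cover counting error only, since the reads carry no stated molecular identifiers and cannot be taken as separate molecules. A gene was called when it had at least 1 CPM, the count scaled to library size, in either library, a ratio of 2-fold or more and an interval that excluded no change. "Rose" and "fell" are used for called genes alone. Drosha had 324 counts in the control, 122 in Drosha-null cells and 244 in Ter119-low cells, so transcripts remained in the library labelled null (log2 ratio to the control −1.81, interval −2.13 to −1.51). The 10 erythroblast markers were detected in every library, and their summed level was 278156 CPM in the control, 141170 in Drosha-null cells and 241383 in Ter119-low cells. In bulk RNA, fewer cells of a type and less RNA per cell cannot be told apart.

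Since Drosha is needed to make microRNAs, the 3' UTRs of the carriers were searched for matches to the seeds of 6 microRNA families of blood cells, in the longest annotated 3' UTR of each gene. A match is 7 bases complementary to bases 2 to 8 of the microRNA. MicroRNA levels were not measured in these libraries. The erythroid microRNA miR-451 and the broadly expressed let-7 and miR-17 families are shown first, miR-451 as a main microRNA of red cells and the others because several called carriers hold their match. Capitals mark the seed.
miR-451a: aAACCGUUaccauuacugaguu
let-7a-5p: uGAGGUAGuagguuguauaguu
miR-17-5p: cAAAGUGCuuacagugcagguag

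No carrier among the 31 measured ones had a miR-451 match (AACGGTT), a match that 2.08% of 9751 expressed genes with a 3' UTR contain. The let-7 match (CTACCTC) was in 6 carriers (19.4%) beside 11.1% of genes, and the miR-17 match (GCACTTT) was in 6 (19.4%) beside 15.6%. The miR-15/16 match (TGCTGCT) was in 9 carriers (29.0%) beside 26.0% of genes, the miR-144-3p match (ATACTGT) in 3 (9.68%) beside 14.4%, and the miR-92/25 match (GTGCAAT) in 3 (9.68%) beside 8.02%. A match is a description of the sequence and not a site in use. The sites below are the let-7, miR-17 and miR-144-3p matches of carriers that were called in a comparison between libraries, except a miR-17 match of Slc25a36 at base 1332, and capitals mark the matching bases. Called carriers also held a miR-15/16 match (Slc25a23, base 539) and a miR-92/25 match (Slc25a36, base 1296).
Slc25a24 let-7: acctttaaacctacCTACCTCt
Slc25a23 let-7: acctacaccaagtcCTACCTCc
Slc25a27 let-7: cgcccctgttatttCTACCTCt
Slc25a27 miR-17: atttgcagggggcaGCACTTTa
Slc25a40 miR-17: ctataaagcaaaaaGCACTTTa
Slc25a36 miR-144-3p: tcattcctaagtgtATACTGTa
Slc25a36 miR-144-3p: cttgaacgtctgcaATACTGTa

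The let-7 match of Slc25a24 starts at base 1474 of a 3' UTR of 1947 bases, that of Slc25a23 at base 1708 of 1768, and that of Slc25a27 at base 67 of 1714. The miR-17 match of Slc25a40 starts at base 1268 of 1499. Both miR-144-3p matches of Slc25a36 lie early in its long 3' UTR, at bases 353 and 418 of 4085. Slc25a4, Slc25a14, Slc25a20 and Slc25a39, which were also called, held none of the 6 matches.

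The carriers ranged widely in level in control erythroblasts. Slc25a5, the ADP/ATP exchanger of dividing cells, stood first at an FPKM of 312.15, a level per gene length and library size. Slc25a3, which imports the phosphate used in ATP synthesis, followed at 143.03, and Slc25a39, which brings glutathione into mitochondria, at 67.43. A gap separated these from Slc25a46, an outer-membrane protein of mitochondrial dynamics, at 15.77. Among all genes of the control library, these 4 ranked 145, 247, 518 and 2266 by FPKM. Slc25a5, Slc25a3 and Slc25a39 together took 66.9% of all carrier counts in the control (Clopper-Pearson interval 65.9 to 67.8), 57.8% (56.9 to 58.6) in the Drosha-null and 65.5% (64.5 to 66.4) in the Ter119-low library. The Drosha-null share was the low one, and its interval, for counting error only, did not overlap those of the others. These 3 carriers are the top of the control library, which favours their share there. In the Drosha-null library Slc25a4 ranked 3 among the carriers by FPKM and Slc25a39 ranked 4.

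**Figure D1:**
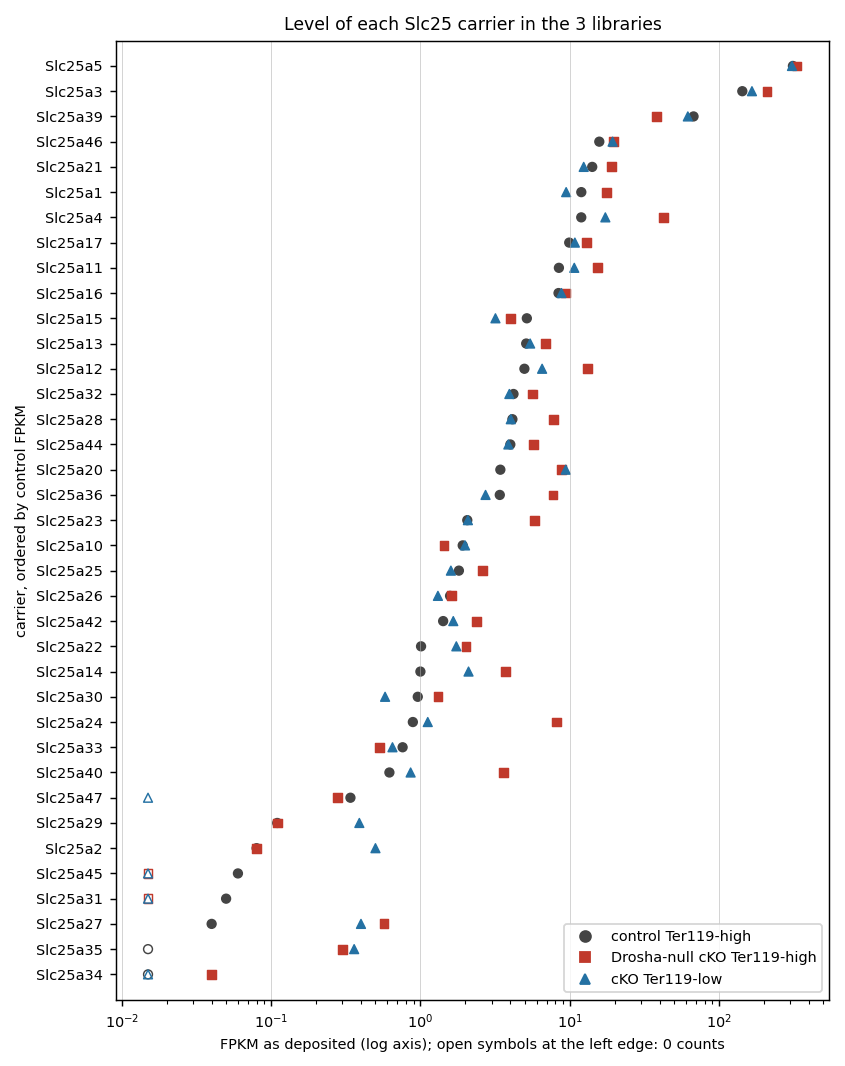
FPKM as deposited (log axis) of 37 of the 38 Slc25 carriers in the control (circles), Drosha-null (squares) and Ter119-low (triangles) libraries, ordered by the control, with open symbols at the left edge for 0 counts. Slc25a5 and Slc25a3 lead in all 3 libraries, and the square for Slc25a24 lies far to the right of both other symbols (8.18 against 0.89 and 1.12).

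All carrier counts summed to 9677 in the control, 12136 in Drosha-null cells and 10056 in Ter119-low cells, which is 0.102%, 0.130% and 0.107% of the libraries. After TMM scaling the sums were 1152, 1089 and 1129 CPM, so whether the Drosha-null sum is above or below the control depends on the scaling. Of the 38 carriers, 31 passed the CPM minimum in each comparison and 7 passed it in none. The 7 were Slc25a2, Slc25a29, Slc25a31, Slc25a34, Slc25a35, Slc25a45 and Slc25a47, with at most 7 counts in any library. They include the testis ADP/ATP carrier Slc25a31, with 1 count in the control and 0 in both cKO libraries, which allows up to 0.269 CPM in the Drosha-null and 0.337 CPM in the Ter119-low library at 3 counts.

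Called carriers were a minority in the comparison of the Drosha-null library with the control. Those that rose were, except for Slc25a4, at 2.06 FPKM or less in the control. The control level is also the denominator of the ratio, so a low value there is partly built into the call. Of all genes, 12.4% were called higher at the 1 CPM minimum and 9.42% at 5 CPM. In the Drosha-null library 6 of the 31 measured carriers rose (19.4%), namely Slc25a27, Slc25a24, Slc25a40, Slc25a14, Slc25a4 and Slc25a23, beside 12.4% of all 10769 genes measured. At the 5 CPM minimum 4 of 25 carriers were called higher, without Slc25a14 and Slc25a27, beside 9.42% of all genes. In the same comparison 1 carrier, Slc25a39, fell (3.23%), beside 7.79% of all genes. The median ratio of the 31 was 0.11, and that of all genes −0.02. Intervals lay above 0 for 12 carriers, below 0 for 5 and across 0 for 14. The share of all genes with such intervals was not taken, so these counts cannot be set against the library.

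The Ter119-low library was closer to the control. There 2 carriers rose (6.45%), Slc25a27 and Slc25a20, beside 2.90% of 10591 genes, and 0 fell, beside 2.76%. Slc25a27, at 0.119 CPM in the control, passed the CPM minimum only through the cKO libraries, at 1.26 and 1.12 CPM, in which it is high, so its call in both comparisons follows in part from the filter. The median was −0.03 for carriers and 0.0 for all genes, and the intervals of 21 carriers crossed 0, again without a share over all genes. Both cKO libraries were set against the same control library, so a control count far from its true level moves both ratios together.

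Set directly against the Ter119-low library, the Drosha-null library had 4 higher carriers (12.9%), Slc25a24, Slc25a40, Slc25a36 and Slc25a23, beside 10.8% of 10795 genes. Slc25a39 was the 1 lower carrier (3.23%), beside 5.94%. The carrier median was 0.17 and the median of all genes −0.02. The gate and the label for Drosha both differ between these libraries, and their effects cannot be told apart.

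The scaling shifts all ratios and turns the sign of those near 0. Under total counts the median of all genes in the Drosha-null comparison with the control moved from −0.02 to 0.43, and the carrier median moved from 0.11 to 0.55. The distance between these medians was 0.13 under TMM and 0.11 under total counts. Under total counts all 6 carriers that rose were still called and joined by Slc25a12, Slc25a20 and Slc25a36, while Slc25a39 was at −0.82 and no longer called. Across all genes, 1333 were called higher and 839 lower under TMM, and 2502 and 294 under total counts.

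**Figure D2:**
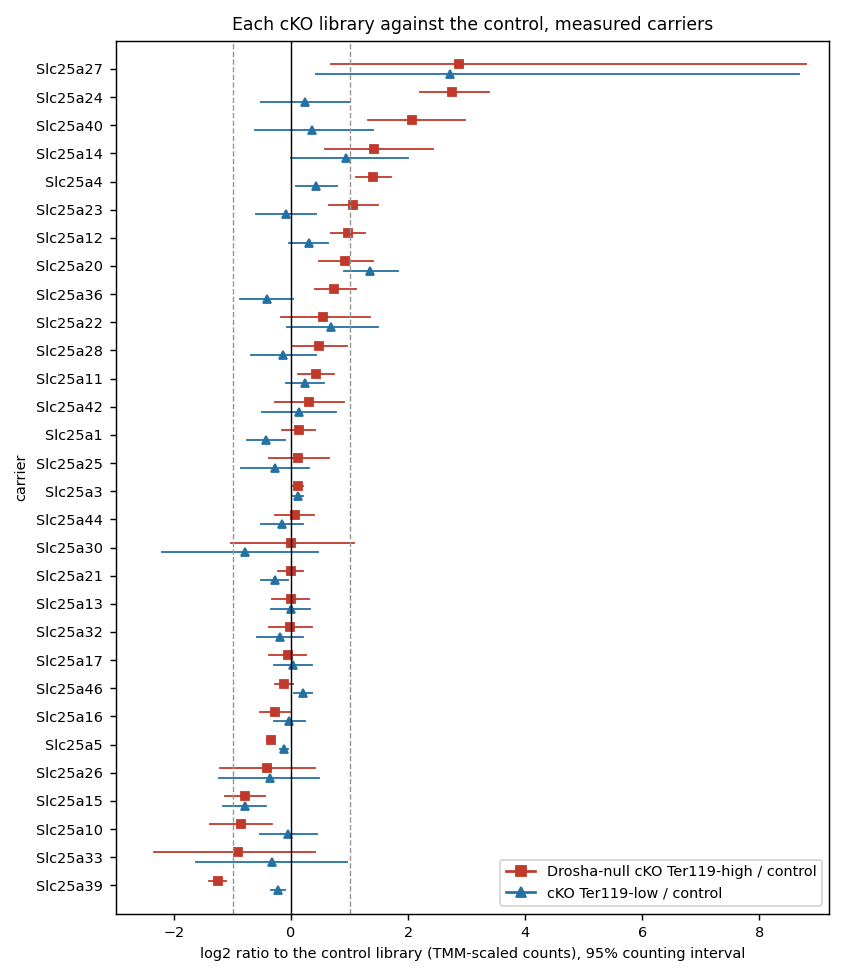
Log2 ratio of 30 of the 31 measured carriers in the Drosha-null (squares) and Ter119-low (triangles) libraries to the control library (TMM-scaled counts), with lines for 95% counting intervals and dashed lines at 2-fold. Slc25a24, Slc25a40, Slc25a14, Slc25a4 and Slc25a23 stand past 2-fold in the Drosha-null library alone, and Slc25a27 stands past it in both. Slc25a20 stands past it in the Ter119-low library, and Slc25a39 lies at −1.25 at the bottom.

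The ATP-Mg/phosphate carriers move adenine nucleotides across the inner membrane in exchange for phosphate under the control of calcium. Slc25a24 had 28 counts in the control, 253 in Drosha-null cells and 35 in Ter119-low cells. The Drosha-null library alone was high. The Drosha-null level was 6.71-fold that of the control (log2 ratio 2.75, interval 2.20 to 3.39), rank 210 from the top among the 10769 genes, and 5.71-fold that of the Ter119-low library (2.51, interval 2.02 to 3.08). Between the Ter119-low library and the control the ratio was 0.23, with an interval of −0.52 to 1.01. Its relative Slc25a23 had 65, 180 and 65 counts in the same order. It rose against the control (1.06, interval 0.65 to 1.49) and was higher than in the Ter119-low library (1.14, interval 0.73 to 1.58). The third, Slc25a25, had 56, 81 and 49 counts and a Drosha-null ratio of 0.12 (interval −0.38 to 0.64).

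The order among these 3 carriers therefore differed between libraries. Per base of gene length, Slc25a24 was at 0.430 of Slc25a23 in the control (interval 0.266 to 0.679), at 0.537 in the Ter119-low library (0.346 to 0.823) and at 1.40 in the Drosha-null library (1.15 to 1.71). Slc25a24 was the less abundant of the pair in the first 2 and the more abundant in the Drosha-null library.

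Slc25a5 and Slc25a4 both exchange cytosolic ADP for mitochondrial ATP, and Slc25a4 is the form that prevails in heart and skeletal muscle. Slc25a4 had 122 counts in the control, 427 in Drosha-null cells and 175 in Ter119-low cells, and the Drosha-null library was again the high one. It rose 2.63-fold against the control (1.40, interval 1.11 to 1.70). Against the Ter119-low library it was 1.95-fold higher (0.96, interval 0.71 to 1.23), just under the 2-fold limit. Its level of 42.69 FPKM gave it rank 3 among the carriers of the Drosha-null library, although the interval of its ratio to Slc25a39 there, 0.962 to 1.24 per base of length, did not separate these genes. Slc25a5 had 3474, 3620 and 3390 counts. Its Drosha-null ratio to the control was −0.35 (interval −0.42 to −0.28) under TMM and 0.09 under total counts, so its direction depends on the scaling. Its Ter119-low ratio was −0.12 (−0.19 to −0.05). Slc25a3 had 1965, 2816 and 2258 counts, and its ratios to the control were 0.11 (interval 0.03 to 0.20) and 0.12 (0.03 to 0.20), under the 2-fold limit in both cKO libraries.

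A ratio taken within a library does not depend on the scaling between libraries. Slc25a5 exceeded Slc25a4 26.3-fold per base of length in the control (interval 21.9 to 31.7), 17.9-fold in the Ter119-low library (15.3 to 20.9) and 7.82-fold in the Drosha-null library (7.07 to 8.67). These intervals overlap in no pair of libraries. The 2 genes are close paralogues, and how reads shared between such copies or their pseudogenes were counted is not given in the sources used here. Markers of heart and skeletal muscle summed to 9.16 CPM in the control, 27.5 in Drosha-null cells and 6.85 in Ter119-low cells. Of the 9 muscle genes in the tables, 7, 8 and 6 were detected, with Myh7 and Nppa at 0 in the control, Myh6 at 0 in the Drosha-null and Myh6, Myl4 and Tnnt2 at 0 in the Ter119-low library. Of the 3 muscle genes above the CPM minimum, Actc1 had 19, 86 and 9 counts and Ttn 37, 181 and 42, both called higher in the Drosha-null library against the control, and Tnnt2 had 16, 20 and 0. Myl4 and Myl7 had 1 count each in both the control and the Drosha-null library. The part of muscle RNA in the Slc25a4 result was not tested. The sum of endothelial markers, which include the gene whose promoter drives Cre, was also highest in the Drosha-null library, at 17.4 CPM for 8 of 8 detected genes, beside 7.97 CPM (8 of 8) in the control and 6.85 CPM (7 of 8, Tie1 at 0) in the Ter119-low library. Of the 5 measured ones, 2 rose against the control, Pecam1 (3, 55 and 4 counts) and Tek (4, 25 and 1), beside 12.4% of all genes. Pecam1 and Tek, at 0.357 and 0.476 CPM in the control, passed the CPM minimum only through the Drosha-null library. Their calls therefore follow in part from the filter. Cdh5 (12, 32 and 16) and Egfl7 (12, 32 and 20) had ratios of 0.97 and were not called. Kdr had 22, 26 and 9 counts and a ratio of −0.17 (interval −1.04 to 0.72), and Flt1, not measured, had 7, 7 and 6. The part of endothelial RNA in the carrier results was not tested either. Megakaryocyte markers summed to 12.0 CPM in the control, 15.8 in Drosha-null cells and 13.9 in Ter119-low cells. Itga2b, the largest, had 79, 126 and 96 counts and Gp9 14, 11 and 19, neither called (0.26 and −0.74 in the Drosha-null library against the control). Gp1ba, at 3, 39 and 5 counts, was called higher there. It passed the CPM minimum only through the Drosha-null library, at 3.50 CPM beside 0.357 in the control. Pf4 and Ppbp were at 0 in the Drosha-null library. The macrophage and neural lists summed to between 2.13 and 8.61 CPM in every library.

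**Figure D3:**
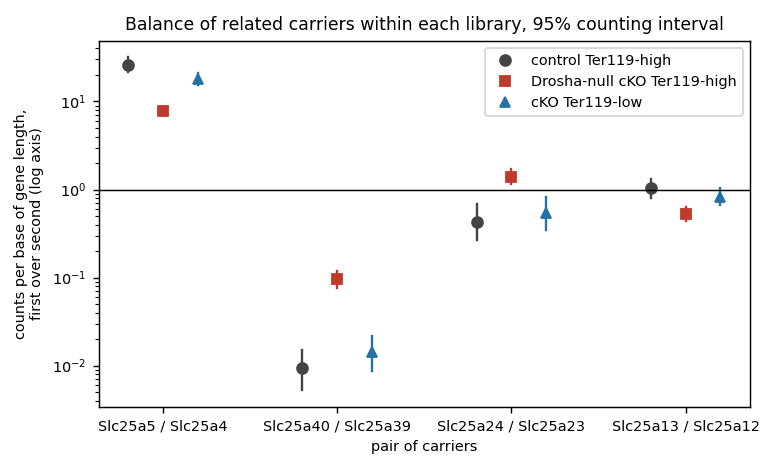
Ratio per base of gene length of the first to the second carrier of 4 related pairs within each library (log axis), with 95% counting intervals as lines, for the control (circles), Drosha-null (squares) and Ter119-low (triangles) libraries. The Drosha-null library is lowest for Slc25a5 over Slc25a4 (7.82) and for Slc25a13 over Slc25a12 (0.524), and highest for Slc25a40 over Slc25a39 (0.0952) and for Slc25a24 over Slc25a23 (1.40).

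The 2 glutathione carriers moved in opposite directions. Slc25a39 had 1033 counts in the control, 574 in Drosha-null cells and 937 in Ter119-low cells, and against the control it was called in the Drosha-null library alone. Its Ter119-low ratio to the control was −0.23 (interval −0.35 to −0.10). In the Drosha-null library Slc25a39 fell by 1.25 on the log2 scale against the control (interval −1.40 to −1.11), and its ratio to the Ter119-low library was −1.03 (−1.18 to −0.88). The ratio stayed below 0 under total counts, at −0.82 against the control and −0.69 against the Ter119-low library, but passed the 2-fold limit in neither. Slc25a40, its scarcer relative, had 16, 91 and 22 counts. It rose 4.18-fold against the control (2.06, interval 1.32 to 2.97) and was 3.25-fold higher than in the Ter119-low library (1.70, interval 1.04 to 2.47). Per base of length, Slc25a40 stood at 0.00930 of Slc25a39 in the control (interval 0.00530 to 0.0152), at 0.0141 in the Ter119-low library (0.00879 to 0.0215) and at 0.0952 in the Drosha-null library (0.0754 to 0.119). Slc25a39 remained the more abundant in every library.

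The iron carriers give a reference point. Slc25a28, the mitoferrin found in many tissues, had 59, 109 and 57 counts, with a Drosha-null ratio of 0.47 (interval 0.01 to 0.96) that was not called. The erythroid mitoferrin Slc25a37, left out of the 38, had 29361, 10429 and 28821 counts and a Drosha-null ratio of −1.90. Slc25a38, the erythroid glycine carrier, also left out, had 314, 145 and 255 counts and a ratio of −1.52. Slc25a39 and these 2 lay below the control in the Drosha-null library, where the summed erythroblast markers were also lowest. The part of erythroid maturation in these values was not tested.

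Uncoupling protein relatives are named for their likeness to the proton leak protein of brown fat. Slc25a14 had 14 counts in the control, 51 in Drosha-null cells and 29 in Ter119-low cells. It rose in the Drosha-null library (1.42, interval 0.58 to 2.43), while the Ter119-low ratio of 0.94 had an interval from 0.0 to 2.00. Slc25a27, best known from brain, had 1, 14 and 10 counts. Both ratios to the control rest on that 1 control count, at 7.29-fold (interval 1.61 to 446) in the Drosha-null and 6.60-fold (1.34 to 409) in the Ter119-low library. Between the cKO libraries the ratio was 0.14, with a wide interval (−1.11 to 1.49). Slc25a30 had 15, 20 and 9 counts, with all 3 intervals across 0.

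Beside Slc25a27, the carrier that rose in the Ter119-low library was Slc25a20. It exchanges acylcarnitines for carnitine and so admits long-chain fatty acids to oxidation. Slc25a20 had 56 counts in the control, 141 in Drosha-null cells and 152 in Ter119-low cells, so both cKO libraries were high. It rose in the Ter119-low library (2.55-fold, log2 ratio 1.35, interval 0.91 to 1.82). The Drosha-null ratio was 0.92 (interval 0.47 to 1.40), under the 2-fold limit under TMM, at 1.35 and called under total counts, and at 1.07 and called when centred on genes of like length.

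Of the 9 amino acid carriers in the tables, 5 were measured and 0 were called in any comparison, with a median Drosha-null ratio of 0.06. Over all genes, 12.4% were called higher and 7.79% lower in the Drosha-null library against the control. The shares were 2.90% and 2.76% for Ter119-low against the control, and 10.8% and 5.94% for Drosha-null against Ter119-low. Beside these shares, 0 calls among 5 genes say little about the group. Slc25a12 and Slc25a13 are the aspartate/glutamate exchangers of the malate-aspartate shuttle, which passes reducing power into mitochondria. Slc25a12 had 135 counts in the control, 351 in Drosha-null cells and 176 in Ter119-low cells, and its Drosha-null ratio of 0.97 (interval 0.68 to 1.27) ended just short of 2-fold. Slc25a13 had 149, 197 and 157 counts and ratios of −0.01 to the control in both cKO libraries. Per base of length Slc25a13 stood at 1.03 of Slc25a12 in the control (interval 0.811 to 1.31), at 0.833 in the Ter119-low library (0.668 to 1.04) and at 0.524 in the Drosha-null library (0.438 to 0.626), the 1 library whose interval excluded 1. Which library is even depends on the gene lengths used. The deposited length of Slc25a12 is 2924 bases, while its longest annotated 3' UTR alone is 4092. Slc25a15, the ornithine carrier, had 167, 128 and 102 counts, and its ratio to the control was −0.79 in both cKO libraries (intervals −1.13 to −0.45 and −1.17 to −0.43). Slc25a22, a glutamate carrier, had 24, 47 and 41 counts, and Slc25a44, which imports branched-chain amino acids, 134, 185 and 127.

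The 4 measured carriers of di- and tricarboxylates also gave 0 calls, with a median Drosha-null ratio of 0.06. These too are few genes beside the 12.4% of all genes called higher and 7.79% lower in the Drosha-null library against the control. Slc25a1 exports citrate for fatty acid synthesis in the cytosol and had 185 counts in the control, 268 in Drosha-null cells and 145 in Ter119-low cells. Its ratio was 0.13 (interval −0.15 to 0.41) in the Drosha-null and −0.43 (−0.76 to −0.11) in the Ter119-low library. Slc25a11, the oxoglutarate carrier and the other transporter of the malate-aspartate shuttle, had 145, 258 and 182 counts and a Drosha-null ratio of 0.42 (interval 0.12 to 0.73), with 0.24 (−0.08 to 0.57) in the Ter119-low library. Slc25a10, the dicarboxylate carrier, had 72, 53 and 74 counts and was low in the Drosha-null library, at −0.85 (interval −1.39 to −0.32). Slc25a21, which carries oxodicarboxylates of lysine breakdown, was the fifth carrier of the control at 14.14 FPKM. It had 333, 439 and 290 counts and a Drosha-null ratio of −0.01 (interval −0.22 to 0.20), at 0.42 under total counts, and a Ter119-low ratio of −0.28 (−0.52 to −0.05).

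The 8 carriers of cofactors and nucleotides ran from 13 counts for Slc25a33 to 246 for Slc25a16 in the control, and their median Drosha-null ratio was −0.11. Slc25a36, a pyrimidine nucleotide carrier, had 97 counts in the control, 216 in Drosha-null cells and 77 in Ter119-low cells. It was 2.23-fold higher in the Drosha-null than in the Ter119-low library (1.16, interval 0.78 to 1.56), whereas its ratio to the control was 0.74 (interval 0.40 to 1.11) and not called. No other carrier of this group was called. Of all genes, 10.8% were called higher and 5.94% lower in the Drosha-null than in the Ter119-low library. Slc25a16, linked to coenzyme A, had 246, 269 and 255 counts and 8.41 FPKM in the control, with a Drosha-null ratio of −0.28 (interval −0.53 to −0.02) that was 0.16 under total counts and a Ter119-low ratio of −0.03 (−0.29 to 0.23). Slc25a17, the peroxisomal member of the family, had 151, 192 and 163 counts, with a ratio of −0.06 (interval −0.38 to 0.26) that was 0.37 under total counts and a Ter119-low ratio of 0.03 (−0.30 to 0.35). Slc25a32, tied to folate and FAD, had 115, 151 and 107, and the coenzyme A carrier Slc25a42 had 42, 69 and 49. The S-adenosylmethionine carrier Slc25a26 had 28, 28 and 23. For these 3 carriers the intervals of all 3 ratios crossed 0.

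Slc25a46, the outer-membrane member, had 646 counts in the control, 790 in Drosha-null cells and 786 in Ter119-low cells. Its ratio was −0.12 (interval −0.27 to 0.04) in the Drosha-null library under TMM and 0.32 under total counts, and 0.20 (0.05 to 0.35) in the Ter119-low library.

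Gene length moved with the ratios of all genes. In the Drosha-null comparison with the control, the 1077 shortest genes measured had a median of −0.59 and the 1077 longest 0.29. Spearman's rho between ratio and length was 0.31 across the 10769 genes, which share the same libraries, and −0.06 across the 31 carriers. The measured carriers ran from 1142 to 4371 bases, and none lay in the longest classes, of 4776 bases and more. With so few carriers over that range, their value does not show that they differ from other genes in this. With each ratio centred on genes of like length, the 6 carriers that rose and Slc25a39, at −1.10, were still called against the control. Against the Ter119-low library the Slc25a39 ratio went from −1.03 to −0.91, past the 2-fold limit before and not after, and that of Slc25a4 from 0.96 to 1.36, called after.

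Among the 6 carriers that rose in the Drosha-null library, 3 held a let-7 match (Slc25a23, Slc25a24 and Slc25a27), as did 3 of the other 25 (Slc25a12, Slc25a16 and Slc25a32). Over all genes, the let-7 match was in 13.9% of 1219 that rose and in 10.7% of 8366 others. The miR-17 match was in 2 of the 6 and 4 of the 25, beside 21.4% and 14.8% of genes, and the miR-15/16 match in 1 and 8, beside 30.6% and 25.4%. The miR-144-3p match was in 0 of the 6 and 3 of the 25, beside 17.8% and 14.0%, and the miR-92/25 match likewise in 0 and 3, beside 12.2% and 7.40%. The miR-451 match was in no carrier, beside 5.50% of genes that rose and 1.60% of others. These are counts of a few genes, and whether the sites act in these cells was not tested.

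Promoter sequence is shown for 2 carriers that rose, Slc25a24 and Slc25a4, and for Slc25a39, which fell, so that their base composition and motif matches can be compared. Each window runs from 250 bases before to 50 bases after the annotated start in RefSeq on GRCm38.p6, and 30 of the 38 carriers have at least 1 window. The windows of Slc25a24 (chr3:109122899-109123198, plus strand), Slc25a39 (chr11:102407468-102407767, minus strand) and Slc25a4 (chr8:46211013-46211312, minus strand) are 72.3%, 77.3% and 65.7% G and C. Capitals mark matches to the motifs described next.
Slc25a24: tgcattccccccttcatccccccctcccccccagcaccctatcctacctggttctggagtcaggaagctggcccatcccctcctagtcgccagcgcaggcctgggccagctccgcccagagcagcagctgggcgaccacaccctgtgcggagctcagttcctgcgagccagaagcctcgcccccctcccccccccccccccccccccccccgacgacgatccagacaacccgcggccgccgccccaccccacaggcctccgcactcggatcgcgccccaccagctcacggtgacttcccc
Slc25a39: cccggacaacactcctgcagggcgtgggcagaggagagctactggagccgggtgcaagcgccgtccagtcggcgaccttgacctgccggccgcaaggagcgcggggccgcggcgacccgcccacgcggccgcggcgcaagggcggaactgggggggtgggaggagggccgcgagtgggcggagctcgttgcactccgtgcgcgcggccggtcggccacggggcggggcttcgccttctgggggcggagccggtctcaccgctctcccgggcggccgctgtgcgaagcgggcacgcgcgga
Slc25a4: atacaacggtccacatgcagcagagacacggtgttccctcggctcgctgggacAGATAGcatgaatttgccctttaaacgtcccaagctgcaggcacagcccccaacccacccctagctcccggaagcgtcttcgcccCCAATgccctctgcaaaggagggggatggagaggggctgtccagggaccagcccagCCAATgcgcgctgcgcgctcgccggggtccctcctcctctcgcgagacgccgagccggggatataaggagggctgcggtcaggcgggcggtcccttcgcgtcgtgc

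The windows were searched on both strands for 7 short motifs. A gene with several annotated starts has several windows, up to 3 among the carriers, and was counted once if any of them matched. GATA letters (any of AGATAA and AGATAG and TGATAA and TGATAG), which erythroid GATA factors bind, were in a window of 7 of 30 carriers (23.3%) beside 33.0% of 27025 genes. Those genes were not limited to expressed ones, unlike the genes set beside the microRNA matches. The E-box CACGTG was in 7 (23.3%) beside 8.09%, and CCAAT in 18 (60.0%) beside 41.1%. TATAAA was in 1 (3.33%), Slc25a21, beside 15.7%. The letters CCGGAAGT, an ETS factor motif, were in 1, Slc25a20, beside 4.31%. GCATGCGC, the core of the NRF1 motif, was in 1 (3.05% of all genes), and AAGGTCA, of estrogen-related receptors, in 1 (5.38%). Overlapping matches were kept. No match in a window says only that these letters are not in it.

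Genes that work with the carriers were taken from 5 further lists. Of the machinery that inserts carriers into the inner membrane, 7 of 14 measured genes fell in the Drosha-null library against the control, beside 7.79% of all genes, 0 rose, beside 12.4%, and 7 were not called. The median ratio of the 14 was −1.01. Tomm5, a small subunit of the outer-membrane pore, had 375 counts in the control, 101 in Drosha-null cells and 254 in Ter119-low cells, and fell by 2.29 on the log2 scale (interval −2.63 to −1.98). Timm9, a chaperone that escorts carriers between the membranes, had 143, 58 and 113 counts and fell by 1.70 (interval −2.18 to −1.26). Timm22, the insertion channel, had 135, 75 and 118 counts and fell by 1.25 (interval −1.68 to −0.84). The other 4 called genes were Timm8b (−1.28), Tomm22 (−1.13), Timm8a1 (−1.11) and Timm13 (−1.07). Tomm70a, the receptor that captures carriers, was near level at −0.09 (interval −0.23 to 0.05), and Tomm20, another receptor, was at −0.40 (−0.54 to −0.26). Under total counts Tomm70a, Tomm20 and Agk lay above 0.

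The import genes are mostly short, a class that was low as a whole in this library. Centred on genes of like length, 3 of the 14 were called lower (Timm9, Timm22 and Tomm5), beside 5.72% of all genes, with a median of −0.63. Under total counts 2 were called lower (Timm9 and Tomm5), beside 2.70% of all genes, with a median of −0.57 beside 0.43 for all genes. In the Ter119-low library 0 of 14 were called, with a median of −0.21, beside 2.90% of all genes higher and 2.76% lower.

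Enzymes of the malate-aspartate and citrate shuttles, which share substrates with Slc25a11, Slc25a12 and Slc25a1, gave 4 higher and 0 lower of 10 in the first comparison, of Drosha-null with control cells, beside 12.4% and 7.79% of all genes, with a median of 0.44. Me1, the cytosolic malic enzyme, had 21 counts in the control, 154 in Drosha-null cells and 20 in Ter119-low cells, and rose by 2.44 (interval 1.80 to 3.20). Idh1, the cytosolic isocitrate dehydrogenase, had 41, 165 and 75 counts and rose by 1.59. Its mitochondrial counterpart Idh2 had 55, 195 and 66 and rose by 1.41, and Got1, the cytosolic aspartate aminotransferase, had 49, 164 and 64 and rose by 1.33. The most abundant members stayed near level, Mdh2 at −0.01 (interval −0.09 to 0.08) and Cs at 0.13 (0.05 to 0.21). None of the 10 was called in the Ter119-low library against the control, beside 2.90% of all genes higher and 2.76% lower, with a median of 0.11.

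Carriers listed under other symbols gave 0 calls of 4 (12.4% of all genes higher and 7.79% lower), with a median of −0.36 under TMM and 0.08 under total counts. Ucp2, an uncoupling protein and the most abundant of them, had 4233, 4444 and 4506 counts, 109.39 FPKM in the control. Mcart1, a carrier of the same family, had 685, 700 and 668. Mtch2 had 383, 406 and 333 counts and was second by FPKM in the control, at 17.11 beside 16.46 for Mcart1. Other mitochondrial transport genes gave 0 higher and 1 lower of 16 (12.4% and 7.79% of all genes), with a median of 0.02. The lower gene was Mpc2, a subunit of the pyruvate carrier, with 171, 105 and 163 counts (−1.11, interval −1.48 to −0.75). The heme-linked transporter Abcb10 and the outer-membrane channel Vdac2 led this list at 78.2 and 77.87 FPKM in the control, with ratios of −0.65 and −0.06.

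Regulators of mitochondrial biogenesis gave 2 higher and 0 lower of 9 (12.4% and 7.79% of all genes), with a median of −0.09. The most abundant, Pprc1, a coactivator related to Ppargc1b, had 1221 counts in the control, 953 in Drosha-null cells and 1098 in Ter119-low cells, with a Drosha-null ratio of −0.76 (interval −0.89 to −0.64). Gabpa, an ETS factor that binds promoters of mitochondrial genes, had 818, 1017 and 953 counts and a ratio of −0.09 (interval −0.23 to 0.04). Neither was called. Ppargc1b, a coactivator of mitochondrial genes, had 3 counts in the control, 40 in Drosha-null cells and 21 in Ter119-low cells, with ratios to the control of 3.13 (interval 1.68 to 5.67) and 2.53 that rest on those 3 counts. At 0.357 CPM in the control, it passed the CPM minimum only through the cKO libraries, so both calls follow in part from the filter. Tfb2m, a mitochondrial transcription factor, had 102, 382 and 154 counts and rose by 1.49 (interval 1.18 to 1.83). Esrra, with 9, 22 and 7 counts, was higher in the Drosha-null than in the Ter119-low library (1.26) and not called against the control. Between the cKO libraries it passed the CPM minimum only through the Drosha-null library, being at 0.786 CPM in the Ter119-low library.

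**Figure D4:**
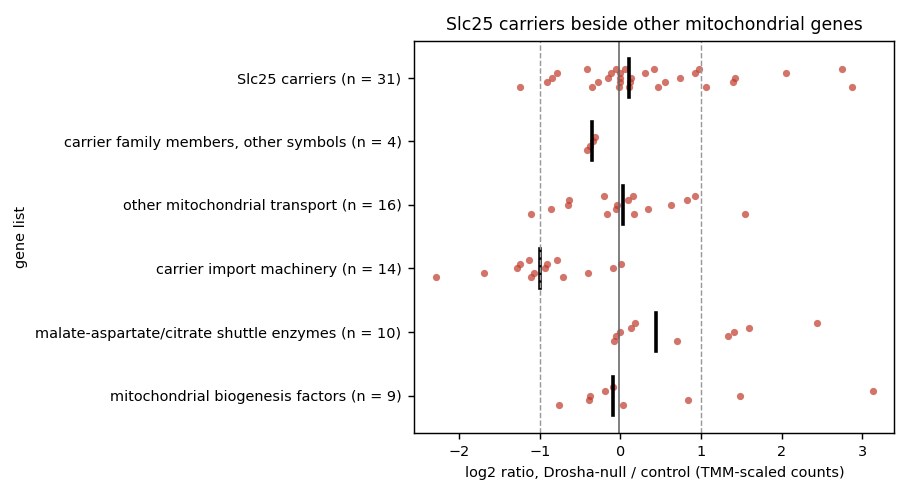
Log2 ratio of the Drosha-null to the control library (TMM-scaled counts) for each measured gene (points) of the Slc25 carriers and 5 other lists, with short black bars at the medians, a thin solid line at the median of all genes and dashed lines at 2-fold. The carriers spread from −1.25 to 2.87 around a median of 0.11, while 13 of the 14 import genes lie below 0 (11 under total counts).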

How the data were processed

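The authors deposited 2 tables, each comparing a cKO library with the control. According to the columns deposited, these contain the authors' estimated counts per gene, FPKM values, log2 ratios of FPKM, and p-values with FDR from a comparison of 1 library with 1 library, which were not used. Which genome build, annotation, aligner and counter lie behind them is not given in the sources used here. Tables of 14640 and 14300 genes, with identical control counts, were joined by gene ID into 15058 genes. A gene in 1 table alone was given 0 counts in the other, and counts were rounded to whole numbers (1 carrier had fractional counts).

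TMM factors from edgeR 4.0.16 (R 4.3.3) were 0.885 for control, 1.19 for Drosha-null and 0.946 for Ter119-low cells. Log2 ratios had 0.5 counts added, and exact 95% Clopper-Pearson intervals were computed from the paired counts. Calls needed 1 CPM in either library, 2-fold and an interval excluding no change. With 1 library per group no test was fitted. The 10 carriers highest in the control by FPKM and every called carrier are given with their counts in all 3 libraries and with ratios, though not every ratio is printed. The others are given by counts or range. A carrier counted in the totals is not reported here by name. From each further list the 2 most abundant and the called genes were taken. Tomm70a, Tomm20 and genes of the marker lists were named after their values were seen. The carriers, lists and rules were chosen with earlier results of these data known. MicroRNA and promoter sequences are RefSeq's, and 3' UTRs are from GENCODE M21. The procedure was run on simulated counts drawn with counting error alone, which is the error the intervals assume. That run therefore cannot speak to differences between replicate libraries. Alternatives were total counts, DESeq2 1.42.0 size factors, no filter or 5 CPM, 2 counts added, 1.5-fold, FPKM ratios and centring on 10 classes of gene length. Scripts ran in Python 3.11.15 with pandas 2.3.3, SciPy 1.17.1, matplotlib 3.10.9 and NumPy 2.4.6.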

Additional observations from a re-analysis of the deposited data

How the results depend on the processing

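No paired analysis was possible because each group held 1 library, and for the same reason no library could be left out. Under total counts, 0 carriers were lower in the Drosha-null library against the control or the Ter119-low library, beside 2.70% and 2.79% of all genes, and the median against the control was 0.55, beside 0.43 for all genes. Ratios of the authors' FPKM values gave 10 higher, 0 lower and a median of 0.53 against the control, beside 23.3%, 2.73% and 0.44 for all genes, and 0 lower against the Ter119-low library, beside 2.82%. Both settings leave out the TMM factors. At 5 CPM, 1 carrier was higher in the Ter119-low library against the control (0.752% of all genes), since Slc25a27 no longer qualified. At 1.5-fold, 3 were lower in Drosha-null and 1 in Ter119-low cells against the control, and 7 were higher and 2 lower in Drosha-null than in Ter119-low cells, beside 17.6%, 4.90%, 18.2% and 14.8% of all genes. Centred on length classes, 0 were lower in that last comparison (5.06% of all genes), where Slc25a39 went from −1.03 to −0.91 and so ended just short of 2-fold. DESeq2 size factors kept all 51 ratios of named carriers within their counting intervals, while total counts moved 23 and length classes 8 outside them. Carriers with few control counts, Slc25a27 above all, are limited by depth.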
